A study of Arabidopsis thaliana with 30 samples.

Results

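Transcripts of 10 expansin genes were followed in leaf 3 of Arabidopsis thaliana seedlings. The genes were EXPA1 (AT1G69530), EXPA3 (AT2G37640), EXPA4 (AT2G39700), EXPA5 (AT3G29030), EXPA6 (AT2G28950), EXPA8 (AT2G40610), EXPA10 (AT1G26770), EXPA11 (AT1G20190), EXPB1 (AT2G20750) and EXLB1 (AT4G17030). They were chosen with earlier results of these data known and taken by locus identifier from a table of 29920 loci. Each had 1 probe set among the 30237 tested. All plants were of the Col-0 ecotype and grew on MS medium, and 1 AGRONOMICS1 tiling array was hybridised per sample. A time course held untreated plants on each day from day 8 to day 13, counted from the end of stratification, the cold treatment that synchronises germination, with 3 arrays a day. In a second experiment plants were treated with norflurazon at day 8, with plants on MS as controls. Leaf 3 was sampled after 24 h, at day 9, and after 48 h, at day 10. There were 3 arrays in each of the 4 groups. Norflurazon blocks carotenoid synthesis and so damages chloroplasts in the light, and its dose is not given in the sources used here.

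Expansins are secreted proteins that let the plant cell wall creep under turgor. They loosen the contacts between cellulose and the matrix around it without cutting the polymers, and they work best in an acid wall, which the proton pumps of the plasma membrane provide. In a growing leaf, cells first divide and then enlarge, and wall loosening is needed for the enlargement. The superfamily has α-expansins (EXPA), β-expansins (EXPB), which are related to the group of grass pollen allergens with the same fold, and the expansin-like EXLA and EXLB proteins, which share the domains but for which wall loosening has not been shown.

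Levels are the deposited log2 values. A change is the log2 difference of 2 group means, given ± its standard error from a limma fit of the whole table of an experiment. A gene is said to have risen or fallen where its Benjamini-Hochberg adjusted p, taken over the whole table, was under 0.05. The table has no detection calls, so a mean at or below the median of the arrays is called dim, and a change from or to a dim level is a lower limit of its size. Array medians ran from 3.50 to 3.63 for the time course, against 2.81 to 2.88 for the norflurazon arrays, and arrays of 1 group correlated at 0.976 or more. Precision is set by the 3 arrays a group. The tissue markers bore out a leaf: the mesophyll markers RBCS1A, LHCB1.4, LHCB2.1 and CA1 lay above the array median in all 10 groups, 5 to 8 of the 8 probe sets for shoot meristem and organ boundary markers were dim in each group, and so were 2 to 4 of the 4 root hair markers. Levels of different genes come from different probes and are not compared.

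Between days 8 and 13, 8 of the 10 expansins rose and 0 fell, while 13.9% of all probe sets rose and 19.8% fell. EXPA1 rose by 3.12 and EXPB1 by 2.51, and EXPA8 and EXLB1, both dim at day 8, by at least 4.90 and 2.91. EXPA10, EXPA5 and EXPA6 rose by 1.14, 0.87 and 0.38, EXPA11 by at least 1.22 from a dim level, and EXPA3 and EXPA4 ended near where they began. The median change was 1.18 over the 10 genes and 0.02 over all probe sets. Over all 6 days, a moderated F test called 8 of the 10, against 32.4% of all probe sets, and the 2 not called were EXPA5 (adjusted p = 0.0514) and EXPA4 (0.745). The count was 9 without day 8 replicate 1, day 9 replicate 1, day 10 replicate 1 or 3, or day 11 replicate 2. Every one of the 8 rises kept its call with any 1 array left out. The differences from the shares of all probe sets were not tested, and the 10 genes were chosen with earlier results of these data known. In RNA of whole leaves, more cells of a type and more RNA per cell cannot be told apart.

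**Figure D1:**
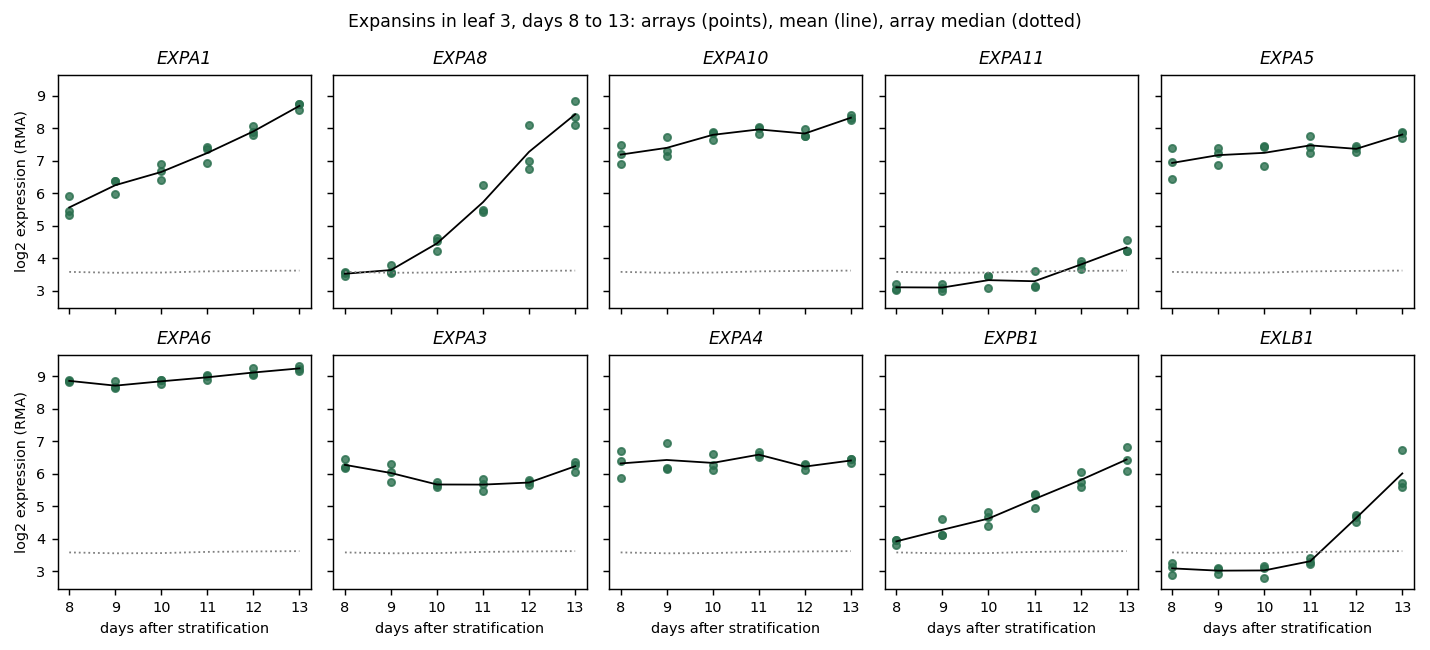
Log2 expression (RMA) of the 10 expansins against days after stratification, with 1 point per array, a line through the means of 3 arrays and the median of the arrays dotted. EXPA8 climbs from 3.53 to 8.42 and EXPA1 from 5.56 to 8.68, EXLB1 stays dim up to day 11 and reaches 6.01 at day 13, and EXPA4 keeps between 6.22 and 6.59.

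EXPA8 is an α-expansin. Its arrays read 3.45, 3.59 and 3.54 at day 8, 3.79, 3.54 and 3.59 at day 9, 4.24, 4.61 and 4.53 at day 10, 5.50, 5.42 and 6.26 at day 11, 6.99, 6.73 and 8.10 at day 12, and 8.35, 8.83 and 8.09 at day 13. Days 8 and 9 overlapped, each day from 10 to 12 lay wholly above the day before it, and days 12 and 13 overlapped through 1 high array of day 12. From 3.53 ± 0.07 at day 8, just under the array median of 3.58, to 8.42 ± 0.38 at day 13 (SD, n = 3), the change was 4.90 ± 0.29 (limma, adjusted p = 2.02e-09), at least 29.8-fold. At day 9 its mean of 3.64 was just over the array median of 3.56, and the change from day 8 was 0.11 ± 0.29 (limma, adjusted p = 0.949). The mean was 4.46 at day 10 and 7.27 at day 12. The interval from day 11 to day 12 brought a rise of 1.54 ± 0.29 (limma, adjusted p = 0.0243), which did not pass without day 12 replicate 3, at 1.13 ± 0.23 (adjusted p = 0.102), nor without replicate 1 or 2 of day 11 (adjusted p = 0.0905 and 0.123). The next interval gave 1.15 ± 0.29 (adjusted p = 0.0556), which passed without day 12 replicate 3, at 1.56 ± 0.23 (0.00222), or without day 11 replicate 3 (0.0411).

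EXPA1, an α-expansin reported to act in stomatal opening, went up in steps of like size. It read 5.91, 5.44 and 5.34 at day 8, 6.37, 6.38 and 5.99 at day 9, 6.67, 6.89 and 6.40 at day 10, 6.94, 7.41 and 7.36 at day 11, 7.87, 7.78 and 8.05 at day 12, and 8.75, 8.74 and 8.56 at day 13. The 3 arrays of each day lay above all 3 of the day before in all 5 intervals, which held for no other gene of the 10. The share of all probe sets with such separation is not given here. Between days 8 and 13 it rose by 3.12 ± 0.17, or 8.71-fold (limma, adjusted p = 1.22e-09), with 35% of the log2 change reached by day 10 and 53.7% by day 11. The steps were 0.68, 0.41, 0.58, 0.66 and 0.78 ± 0.17, and the last of them passed (limma, adjusted p = 0.0298). That call was lost without day 12 replicate 1 or 2 or day 13 replicate 1 or 2 (adjusted p = 0.112, 0.142, 0.0875 and 0.113). The first step, with adjusted p = 0.0646, passed without day 8 replicate 1, at 0.86 ± 0.17 (0.0159), and without day 9 replicate 3 (0.0293).

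EXPB1, the only β-expansin of the 10, also had its lowest mean at day 8 and its highest at day 13. Its arrays read 3.97, 3.82 and 3.98 at day 8, 4.60, 4.11 and 4.13 at day 9, 4.38, 4.82 and 4.67 at day 10, 4.94, 5.38 and 5.35 at day 11, 5.76, 6.06 and 5.60 at day 12, and 6.41, 6.07 and 6.83 at day 13. Successive days were separate in 4 of 5 intervals, the exception being days 9 and 10. It rose by 2.51 ± 0.19, or 5.70-fold, between days 8 and 13 (limma, adjusted p = 3.30e-08), and no single interval passed (0.35 to 0.63 ± 0.19, adjusted p = 0.125 to 0.548).

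EXLB1, the one expansin-like gene of the 10, was dim on the first 4 days and bright on the last 2. It read 2.89, 3.14 and 3.25 at day 8, 3.06, 3.10 and 2.91 at day 9, 3.17, 3.12 and 2.80 at day 10, 3.40, 3.30 and 3.24 at day 11, 4.51, 4.74 and 4.68 at day 12, and 6.72, 5.71 and 5.60 at day 13. Days 8 to 10 overlapped, and the 3 arrays of day 12 and of day 13 each lay above all arrays of earlier days. The rises from day 11 to day 12 and from day 12 to day 13 were 1.33 ± 0.21 and 1.37 ± 0.21 (limma, adjusted p = 0.0137 and 0.00303), the first of them a lower limit since day 11 was dim. The first of these 2 calls was lost without day 11 replicate 2 or day 12 replicate 3 (adjusted p = 0.0611 and 0.0864). From day 8 to day 13 it rose by 2.91 ± 0.21 (adjusted p = 1.80e-08), at least 7.54-fold.

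EXPA11, an α-expansin, was likewise dim up to day 11. Its arrays ranged from 3.01 to 3.62 over days 8 to 11, then read 3.83, 3.66 and 3.93 at day 12 and 4.57, 4.23 and 4.21 at day 13. Day 12 lay above every earlier array and day 13 above day 12. The rise from day 8 was 1.22 ± 0.15 (limma, adjusted p = 3.75e-06), at least 2.34-fold.

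EXPA10, whose suppression by antisense RNA gives smaller leaves, read 7.47, 6.90 and 7.19 at day 8, 7.73, 7.15 and 7.30 at day 9, 7.64, 7.88 and 7.86 at day 10, 8.01, 7.83 and 8.04 at day 11, 7.77, 7.97 and 7.76 at day 12, and 8.40, 8.30 and 8.26 at day 13. Its neighbouring days overlapped except that day 13 lay above all others. It rose by 1.14 ± 0.15, or 2.20-fold, between days 8 and 13 (limma, adjusted p = 1.26e-05), and 53.4% of that lay before day 10. EXPA5, linked to brassinosteroid-driven growth, went from 7.39, 6.45 and 6.95 at day 8 to 7.70, 7.87 and 7.84 at day 13, a rise of 0.87 ± 0.21 (adjusted p = 0.00353). Its days overlapped each with the next up to day 12, and day 13 lay above day 12. EXPA6, an α-expansin, went from 8.88, 8.85 and 8.83 to 9.17, 9.22 and 9.32, a rise of 0.38 ± 0.09 (adjusted p = 0.00348). This was the smallest rise of the 8, the arrays of day 13 lay above those of day 8, and its lowest mean was at day 9 (8.71 ± 0.11, SD, n = 3).

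EXPA3 and EXPA4 were the α-expansins with no difference called between days 8 and 13, at -0.04 ± 0.14 and 0.09 ± 0.21 (limma, adjusted p = 0.853 and 0.80). EXPA3 nonetheless moved in between. It read 6.45, 6.20 and 6.17 at day 8, 6.29, 5.74 and 6.04 at day 9, 5.76, 5.60 and 5.65 at day 10, 5.83, 5.48 and 5.69 at day 11, 5.80, 5.65 and 5.74 at day 12, and 6.27, 6.37 and 6.05 at day 13, so that days 8 and 13 overlapped and both lay above days 10, 11 and 12. It fell by 0.60 ± 0.14 from day 8 to day 10 (adjusted p = 0.00529) and rose by 0.56 ± 0.14 from day 11 to day 13 (0.0121), the latter not called without day 11 replicate 2 (0.0701) or day 13 replicate 2 (0.0640). EXPA4 gave no call in any comparison of the time course, and its group means spanned 0.36, from 6.22 at day 12 to 6.59 at day 11.

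The 1-day intervals carried few calls. From day 8 to day 9 limma called 0 of the 10 genes, against 1.28% of all probe sets. From day 9 to day 10 it called 0, against 7.38%. These shares do not apply to the looser threshold of an unadjusted p under 0.05, which 1 and 4 of the 10 met. The share of all probe sets at that looser threshold is not given here, so such counts are not read as a result. From day 9 to day 10, EXPA10 passed without day 9 replicate 1, at 0.57 ± 0.15 (adjusted p = 0.0377), EXPA3 without day 9 replicate 2, at -0.50 ± 0.14 (0.0413), and EXPA8 without day 12 replicate 3, at 0.82 ± 0.21 (0.0250). From day 10 to day 11 limma again called 0, against 0% of all probe sets, and 3 of the 10 had an unadjusted p under 0.05. Days 11 to 12 brought rises of EXPA8 and EXLB1, 2 of 10 against 0.364% of all probe sets called higher, and days 12 to 13 rises of EXPA1 and EXLB1, 2 of 10 against 0.681%. With just the 6 arrays compared in the fit these 2 counts became 1 and 0. EXPA11 passed in the last interval without day 11 replicate 3, at 0.53 ± 0.13 (adjusted p = 0.0489). All 10 genes stood higher on average at day 13 than at day 12, by 0.13 to 1.37, and the median change of all probe sets was -0.01.

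**Figure D2:**
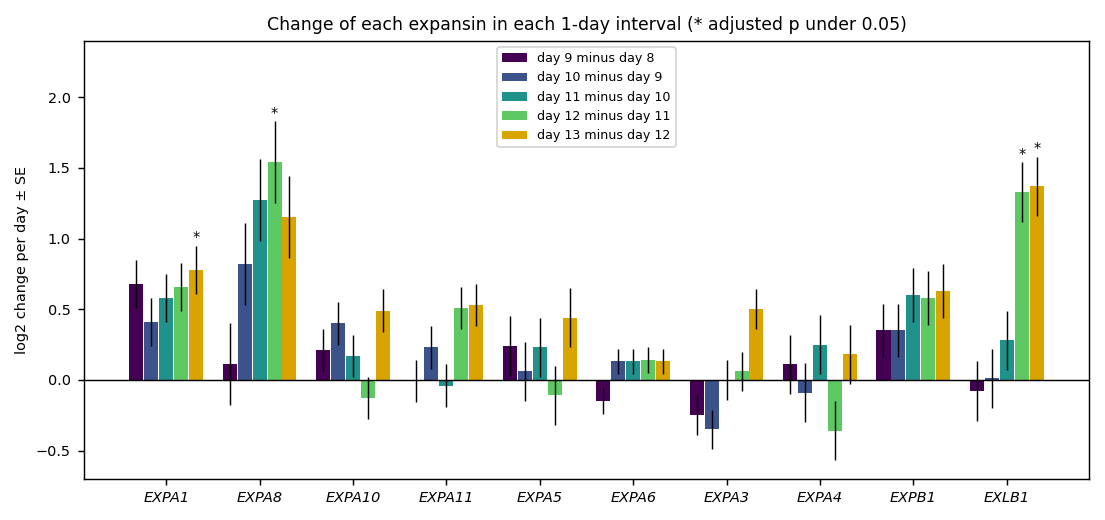
Log2 change per day ± SE of each expansin in each of the 5 intervals of 1 day, with a star where the adjusted p was under 0.05. The bars of EXPA1 keep between 0.41 and 0.78, while those of EXLB1 run from -0.08 to 0.28 in the first 3 intervals and reach 1.33 and 1.37 in the last 2.

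Windows of 2 days at the start and at the end of the series asked whether the genes moved early or late. From day 8 to day 10, 4 of the 10 rose, against 6.47% of all probe sets, and 1, EXPA3, fell, against 11.0%. The 4 were EXPA1 by 1.09 ± 0.17 (limma, adjusted p = 0.000309), EXPA8 by 0.93 ± 0.29 (0.0320), EXPB1 by 0.70 ± 0.19 (0.0184) and EXPA10 by 0.61 ± 0.15 (0.00983). Single arrays decided 3 of these calls. EXPA8 did not pass without any 1 of the 3 day 8 arrays (adjusted p = 0.0900, 0.0647 and 0.0737) or without replicate 2 or 3 of day 10 (0.110 and 0.0880). EXPB1 did not pass without day 8 replicate 2 (0.0654) or replicate 2 or 3 of day 10 (0.0873 and 0.0584), and EXPA10 not without day 8 replicate 2 (0.0587). Over all probe sets, quantile normalization again gave 2328 higher and 2465 lower in this window in place of 1955 and 3330, and it kept all 5 calls of the 10 genes.

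From day 11 to day 13, 6 of the 10 rose and 0 fell, against 5.47% and 6.93% of all probe sets. EXLB1 rose by 2.70 ± 0.21 (limma, adjusted p = 1.01e-06), EXPA8 by 2.69 ± 0.29 (1.26e-05), EXPA1 by 1.45 ± 0.17 (3.52e-05), EXPB1 by 1.21 ± 0.19 (0.000548), EXPA11 by 1.04 ± 0.15 (0.000173) and EXPA3 by 0.56 ± 0.14. The difference between the late and the early change was itself tested, and 4 of 10 genes passed with the late change more positive, against 2.47% of all probe sets with a higher call. It was 2.76 ± 0.30 for EXLB1 (adjusted p = 6.55e-05), 1.76 ± 0.40 for EXPA8 (0.0171), 1.16 ± 0.19 for EXPA3 (0.00199) and 0.82 ± 0.21 for EXPA11 (0.0298). Dim levels limit 3 of these. EXPA8 was dim at day 8, so its early change is a lower limit and its difference an upper one, and EXLB1 and EXPA11 were dim at days 8, 10 and 11, so changes below the dim range could have been missed in both windows. For EXPA1, EXPB1 and EXPA10 the late change exceeded the early one by 0.35 ± 0.24, 0.51 ± 0.27 and -0.24 ± 0.21, and none passed (adjusted p = 0.531, 0.384 and 0.653). The call of EXPA8 was lost without day 11 replicate 2 (0.0514) or day 13 replicate 2 (0.0520). That of EXPA11 was lost without replicate 2 or 3 of day 8, day 10 replicate 3, replicate 1 or 2 of day 11, or day 13 replicate 1 (adjusted p = 0.0509 to 0.0841), and with the compared arrays alone in the fit, at 0.82 ± 0.23 (0.0628).

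Of the 36 expansin superfamily genes listed, 32 were measured. Of the 22 beyond the 10 described above, 4 rose and 3 fell between days 8 and 13, with a median change of 0.20, beside 13.9% of all probe sets higher and 19.8% lower. For the 10 the counts were 8 and 0 and the median 1.18. The 10 were chosen with earlier results of these data known, and no test was made of that difference. EXPA15 (AT2G03090) fell most, by 1.31 ± 0.24 (limma, adjusted p = 0.000260), from 7.88 ± 0.25 to 6.57 ± 0.40 (SD, n = 3). EXPA20 (AT4G38210) changed by -0.90 ± 0.13 (adjusted p = 2.31e-05) and EXPA13 (AT3G03220) by -0.73 ± 0.13 (0.000268), whereas EXPA9 (AT5G02260), dim at day 8, rose by 0.84 ± 0.11 (1.23e-05). The other 3 rises were of 0.33 to 0.55 and began from dim levels. The probe sequences were not used here, so signal shared between these paralogous genes was not tested.

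**Figure D3:**
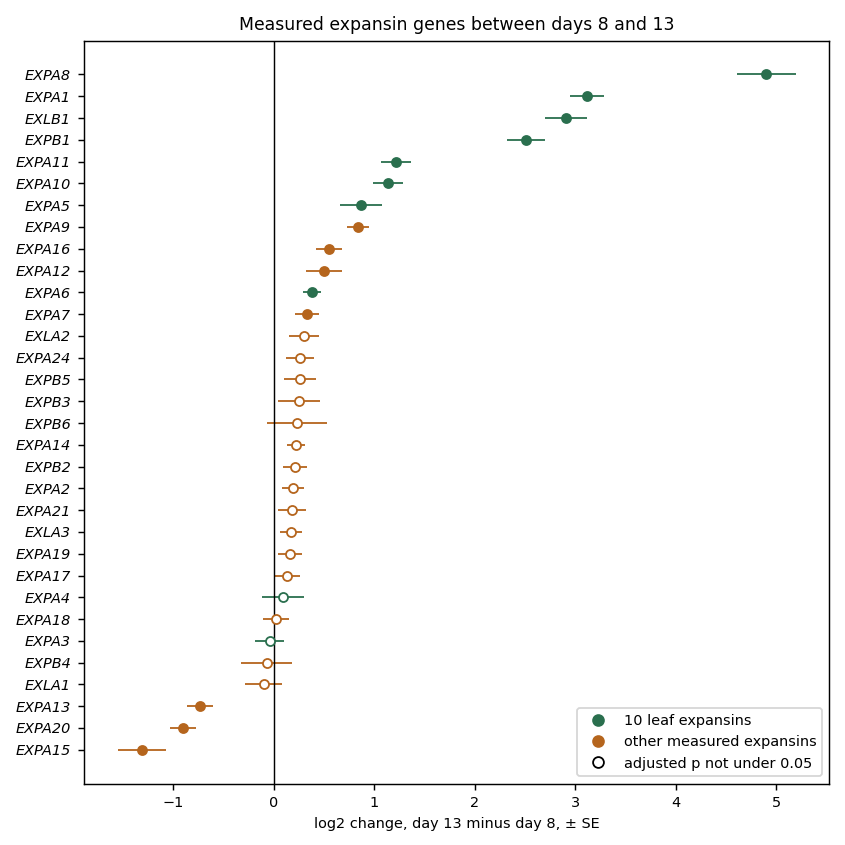
Log2 change from day 8 to day 13 ± SE for the 32 measured expansin genes, sorted by size, with open circles where the adjusted p was not under 0.05. The 4 genes at the top, EXPA8, EXPA1, EXLB1 and EXPB1, changed by 2.51 or more, and the 3 at the bottom, EXPA13, EXPA20 and EXPA15, lie between -0.73 and -1.31.

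The proton pumps of the plasma membrane showed 3 rises and 0 falls among 11 AHA genes between days 8 and 13. Of all probe sets, 13.9% rose and 19.8% fell. AHA3 (AT5G57350), a pump of phloem companion cells, rose by 2.54 ± 0.16 from a dim level (limma, adjusted p = 3.54e-09). The broadly expressed AHA2 (AT4G30190) and AHA1 (AT2G18960) rose by 1.16 ± 0.19 (0.000119) and 0.79 ± 0.11 (1.25e-05). The median over the 11 was 0.09.

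Markers of leaf cell types moved over the same days, in which 13.9% of all probe sets rose and 19.8% fell. All 6 vasculature markers and all 6 guard cell markers rose between days 8 and 13, their mean log2 level going from 3.29 to 3.36 on the day 8 arrays to 5.25 to 5.31 on those of day 13 for vasculature, and from 3.39 to 3.55 to 4.97 to 5.15 for guard cells. At day 8, 4 of the 6 vasculature and 5 of the 6 guard cell markers were dim, and at day 13, 0 and 1 were. Of trichome markers 5 of 6 fell, from 5.06 to 5.28 to 3.61 to 3.84, with 1 dim at day 8 and 3 at day 13. Of the 5 mesophyll probe sets 3 rose, from 9.69 to 10.17 to 11.96 to 12.61, none being dim. All 4 epidermis markers fell, from 9.22 to 9.33 to 8.30 to 8.51, none being dim. Of the root hair markers 1 of 4 rose, LRX1, by 0.42 ± 0.12 (limma, adjusted p = 0.0129), and it was not dim on either day. Of the 8 meristem and boundary probe sets 0 were called. The part of such shifts in the rise of the expansins was not tested.

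Across the 18 arrays of the time course, which share the order of ages, the 10 genes correlated with one another at a median Pearson r of 0.70 over 45 pairs, and 18 pairs exceeded 0.8. EXPA1 correlated at 0.96 with EXPA8 and at 0.96 with EXPB1, and EXPA11 at 0.94 with EXLB1. EXPA3 and EXPA8 stood at -0.02. In the 12 arrays of the norflurazon experiment the median was 0.39 and 5 pairs exceeded 0.8, among them EXPA5 with EXPA10 at 0.87, whose value in the time course was 0.88, and EXPA3 with EXPA8 gave -0.72. These are descriptions over arrays that share their groups.

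Among 6739 named probe sets at or above the median level, the 2 with the highest r to each gene called in the F test were found over the 18 time course arrays. The β-glucosidase gene BGLU40 was the nearest to EXPA1 (r = 0.99) and second to EXPB1 (0.97), and over the 12 arrays of the other experiment it gave 0.84 and 0.68. PKS2, a phytochrome kinase substrate, was at 0.98 with EXPA1, and the squalene monooxygenase gene SQP1 at 0.97 with EXPB1, against 0.37 and -0.57 in the other experiment. Nearest to EXPA8 were the F-box gene AFR and the kinase gene SNRK2-8, both at 0.98, with 0.30 and 0.26 over the norflurazon arrays. The phloem protein gene PP2-A1 was at 0.97 with EXLB1 and at 0.94 with EXPA11, and RL4, of the RADIALIS-like genes, at 0.97 with EXLB1, but all 3 values were below 0 in the other experiment (-0.25, -0.56 and -0.10). In that experiment EXLB1 and EXPA11 were dim in all 4 groups. EXPA10 was nearest to the caleosin gene RD20 and to RCP1 (0.95 each), and EXPA6 to the clock gene CCA1 (0.94) and to APRL6 (0.93), with 0.43, 0.03, 0.05 and -0.31 over the norflurazon arrays. For EXPA3 the nearest were SIP1 (0.90), a gene of raffinose metabolism, and the homeobox gene HAT2 (0.89), and SIP1 gave 0.76 and HAT2 0.29 over the norflurazon arrays.

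Norflurazon called 1 of the 10 expansins higher and 0 lower against MS after 48 h, at day 10, where 0.397% of all probe sets were higher and 0.374% lower. That gene was EXPA3. After 24 h, at day 9, limma called 0 of 10, against 7.43% of all probe sets called. Of the 10, 4 had an unadjusted p under 0.05, a looser threshold to which the 7.43% does not apply. Its own share of all probe sets is not given here, so this count is not read as a result. Quantile normalization again gave 113 higher and 210 lower at day 10, in place of 120 and 113, and the call of EXPA3 remained. The same controls enter the comparisons of treatment and of age in this experiment.

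EXPA3 read 6.15, 6.25 and 5.95 on MS and 6.39, 6.53 and 6.43 with norflurazon at day 9, and 6.05, 5.97 and 5.73 on MS and 6.59, 6.98 and 6.70 with norflurazon at day 10. All treated arrays lay above all controls on both days. The change was 0.33 ± 0.12 at day 9 (limma, adjusted p = 0.138) and 0.84 ± 0.12 at day 10 (0.0145), the latter a 1.79-fold rise. The day 10 call was lost without MS day 10 replicate 2, at 0.87 ± 0.14 (0.0642), and without norflurazon day 10 replicate 2, at 0.73 ± 0.12 (0.0594). The difference between the days was 0.51 ± 0.17 and did not pass (adjusted p = 0.182).

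EXPA8 lay on the other side. It read 4.36, 3.97 and 4.96 on MS and 3.98, 3.75 and 4.03 with norflurazon at day 9, and 5.10, 4.96 and 4.78 on MS and 4.03, 4.21 and 4.09 with norflurazon at day 10. At day 9 the groups overlapped, with a wide spread among the controls, and at day 10 all 3 treated arrays lay below the 3 controls. The change at day 10 was -0.84 ± 0.19 and missed the threshold (limma, adjusted p = 0.0764). It passed with the 6 compared arrays alone in the fit (-0.84 ± 0.10, adjusted p = 0.0253) and without MS day 9 replicate 2 or 3 (0.0302 and 0.0123), and its adjusted p over all alternatives ran from 0.0123 to 0.208. At day 9 the change was -0.52 ± 0.19 (adjusted p = 0.151), or -0.75 ± 0.16 without MS day 9 replicate 2 (0.0233).

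The remaining 8 genes gave changes of -0.32 to 0.24 at day 10 and of 0.02 to 0.47 at day 9, none of them called. EXPA4 had the largest of these at day 9, 0.47 ± 0.15 (limma, adjusted p = 0.0807), with 7.08, 6.55 and 6.74 in treated leaves against 6.29, 6.55 and 6.13. At day 9 the treated mean was above the control mean for 9 of the 10 genes, EXPA8 being the exception, and at day 10 for 3 of 10. At days 9 and 10 the median change was 0.25 and -0.05 over the 10 genes and -0.01 and 0.00 over all probe sets. The 10 genes share the same arrays, and the share of all probe sets with a higher treated mean is not given here. The interaction of treatment with day was called for 0 of 10 genes by limma, against 1.95% of all probe sets. An unadjusted p under 0.05, a looser threshold to which that share does not apply, was found for 3 of 10. The share of all probe sets at that threshold is not given here, so the 3 are not read as a result. EXPA11 and EXLB1, dim in all 4 groups, could show little.

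**Figure D4:**
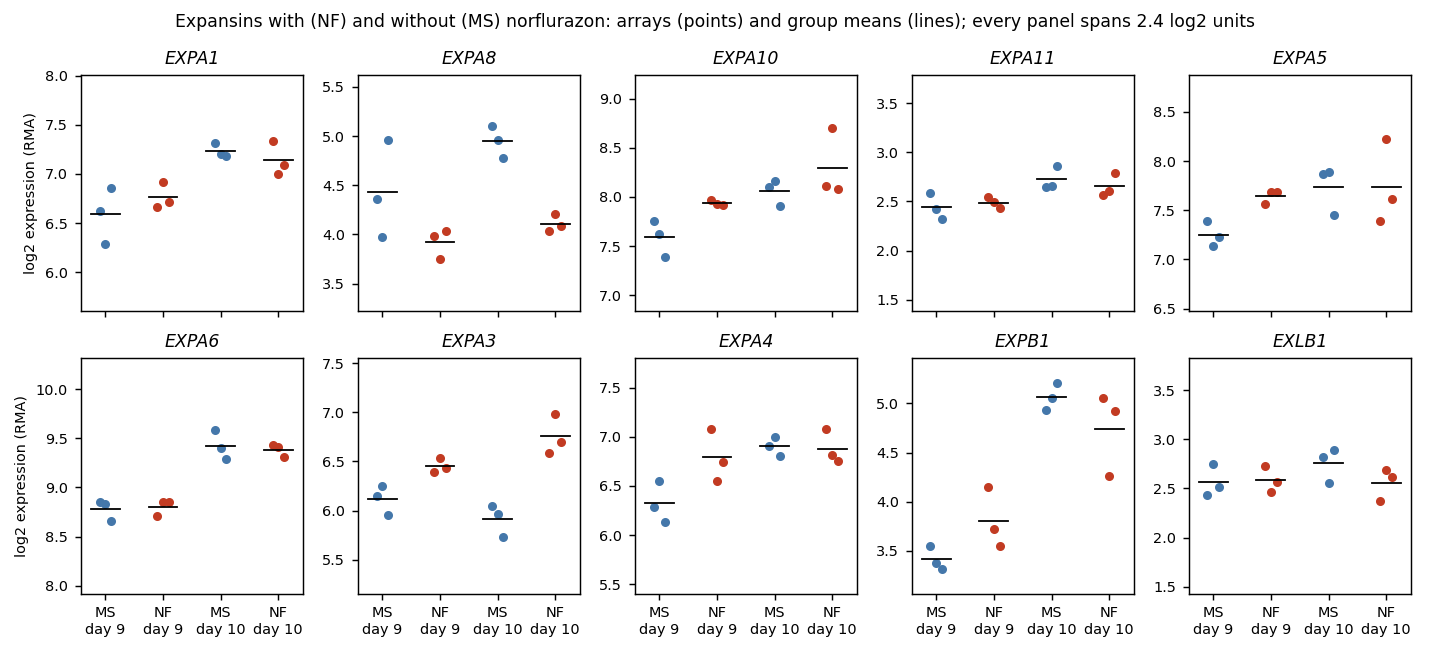
Log2 expression (RMA) of the 10 expansins in leaf 3 with (NF, red) and without (MS, blue) norflurazon at days 9 and 10, with 1 point per array and a line at each mean of 3. EXPA3 lies higher with norflurazon on both days, at 6.76 against 5.92 on day 10, and EXPA8 lower, at 4.11 against 4.95.

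Beyond the 10, norflurazon at day 10 changed 0 of the other 22 expansins and 0 of 11 proton pumps by limma. At an unadjusted p under 0.05, for which no share of all probe sets is given here, the counts were 1 and 1. At day 9, where 7.43% of all probe sets were called in either direction, 2 of the other 22 expansins rose and 2 of the 11 pumps fell. The rises were of EXPA15 by 1.02 ± 0.20 (limma, adjusted p = 0.00960) and of EXPB3 (AT4G28250) by 0.69 ± 0.16 (0.0226). AHA2 and AHA1 fell by 0.67 ± 0.10 (0.00241) and by 0.51 ± 0.08 (0.00376). These 4 were named after their values were seen. Of the marker lists, 2 of 5 mesophyll probe sets (LHCB1.4 and LHCB2.1, by 1.47 and 0.42) and 2 of 6 trichome markers were higher at day 9, and 2 of 6 vasculature markers lower (SUC2 and APL, by -0.30 and -0.48). At day 10, 1 of 6 trichome markers was higher and no other marker was called. Of all probe sets, 7.43% were called in either direction at day 9 and 0.397% were called higher at day 10. The mean level of the trichome list was 4.50 to 4.58 on the MS arrays and 4.79 to 5.32 on the norflurazon arrays of day 10, with 1 of the 6 dim in each group, and its part in the change of EXPA3 was not tested. Guard cell markers stood at 3.55 to 3.61 on MS and 3.03 to 3.40 with norflurazon at day 10, 2 and 3 of 6 being dim and 0 of 6 called, and their part in the values of EXPA8 was not tested. The mesophyll list was also lower with norflurazon at day 10, at 12.16 to 12.31 against 12.48 to 12.67 on MS. The epidermis list was higher, at 8.89 to 9.09 against 8.83 to 8.85. No marker of these lists was dim or called at day 10, and their part in either gene was not tested. Arrays of the remaining lists overlapped.

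The control leaves covered the step from day 9 to day 10 in a second set of plants. In the time course limma had called 0 of the 10 for that step, against 7.38% of all probe sets. On MS, 4 of the 10 expansins rose, against 5.18% of all probe sets, and 0 fell, against 6.31%. With norflurazon 2 rose, against 1.65%, and 0 fell, against 0.314%. Over the same step 3 of 5 mesophyll probe sets rose on MS, with changes of 0.06 to 3.84 over the list, and 2 of 5 with norflurazon, with 0.07 to 1.81. Of guard cell markers 2 of 6 rose on MS, with changes of 0.01 to 0.78, and 0 of 6 with norflurazon, with -0.24 to 0.12, and the other marker lists had no call. The mean level of the mesophyll list went from 10.85 to 11.26 to 12.48 to 12.67 on the MS arrays, none being dim, and that of the guard cell list from 3.24 to 3.43 to 3.55 to 3.61, with 3 and 2 of 6 dim. Their part in the rises of the expansins was not tested. EXPB1 went from 3.55, 3.38 and 3.32 to 4.93, 5.05 and 5.21 on MS, a rise of 1.64 ± 0.19 or 3.12-fold (limma, adjusted p = 0.000214). With norflurazon it went from 4.15, 3.72 and 3.55 to 5.05, 4.26 and 4.92, a rise of 0.94 ± 0.19 (0.0307). Both pairs of groups were separate. The second call was lost without norflurazon day 9 replicate 2 or 3, MS day 10 replicate 2, or norflurazon day 10 replicate 1 or 3 (adjusted p = 0.0506 to 0.121), and with the compared arrays alone in the fit (0.118). The same step in the time course gave 0.35 ± 0.19 (adjusted p = 0.349) with overlapping days.

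EXPA6 rose from 8.85, 8.83 and 8.66 to 9.58, 9.40 and 9.29 on MS, by 0.65 ± 0.09 (limma, adjusted p = 0.000635), and from 8.71, 8.85 and 8.85 to 9.43, 9.41 and 9.31 with norflurazon, by 0.58 ± 0.09 (0.00685). The day 10 arrays lay above the day 9 arrays in both. In the time course the step was 0.13 ± 0.09 (0.502). EXPA1 rose by 0.64 ± 0.14 on MS (0.00895), with 0.37 ± 0.14 under norflurazon (0.265) and 0.41 ± 0.17 in the time course (0.177), and the 3 day 10 arrays lay above the 3 of day 9 in each of these sets. EXPA4 rose by 0.58 ± 0.15 on MS (0.0212), a call lost without replicate 1 or 3 of MS day 9 or replicate 1 or 2 of MS day 10 (0.0587, 0.0798, 0.0623 and 0.0816), and gave 0.09 ± 0.15 with norflurazon and -0.09 ± 0.21 in the time course. On MS, other genes passed with 1 array left out. EXPA8 passed without MS day 9 replicate 3, at 0.78 ± 0.14 (0.00441), EXPA11 without MS day 9 replicate 1, at 0.35 ± 0.10 (0.0426), and EXPA10 and EXPA5 without norflurazon day 10 replicate 2, at 0.47 ± 0.10 (0.0111) and 0.48 ± 0.12 (0.0287). Array medians differ between the experiments, whose levels were not set against each other, and the differences in step between them were not tested.

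**Figure D5:**
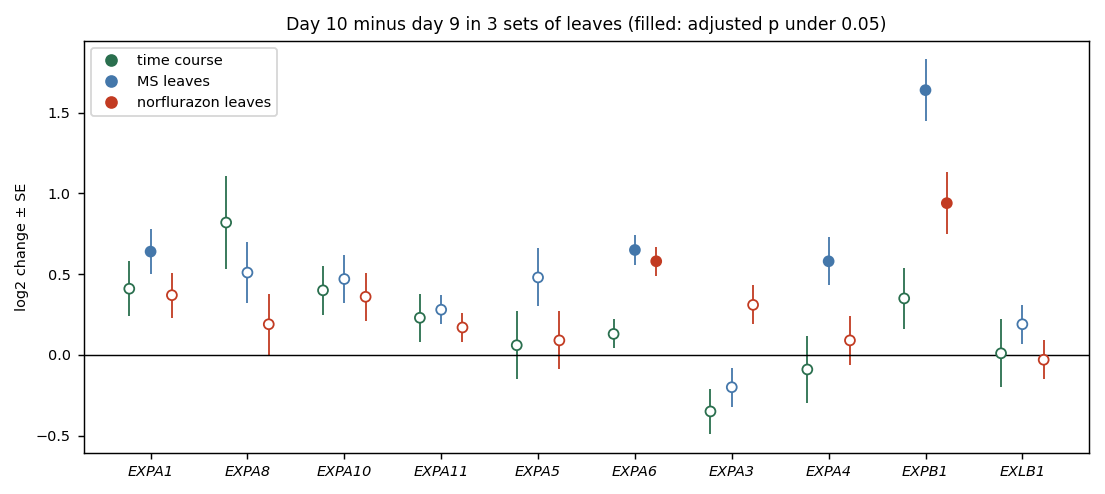
Log2 change from day 9 to day 10 ± SE of the 10 expansins in the time course, in MS leaves and in norflurazon leaves, with filled circles where the adjusted p was under 0.05. EXPB1 lies at 0.35, 1.64 and 0.94 and EXPA6 at 0.13, 0.65 and 0.58, in that order.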

How the data were processed

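The authors deposited 1 table of log2 expression values, 1 column an array. Per the submitters' processing notes they come from RMA and the TAIR9 annotation. Probe definitions, versions and filters are not stated in the sources used here. No column was left over (0 columns of other samples). Of the 29920 loci, 29398 matched a RefSeq gene table on TAIR10.1, used for names only, so no coordinates are given. Groups followed the labels, which call the arrays of a group biological repeats. The time course and the norflurazon experiment were fitted separately in limma (version 3.58.1, R version 4.3.3) with group means, 15 comparisons and moderated variances, and no filter on dim probe sets. The fit was tested on simulated data. Alternatives were another normalization, centring, a dim filter, a replicate block, a trended robust prior, array weights, fits to the compared arrays alone, and each array left out. With the dim filter all 10 genes passed in the time course and 8 of 10 in the norflurazon experiment (not EXPA11 and EXLB1).

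The labels do not say whether same-numbered repeats share a batch, and the main fit did not pair them. After removal of group means they correlated at -0.25 to 0.17 (45 pairs, 2 of them over 0.1) and at -0.06 to 0.09 (18 pairs). The 10 genes and the lists (other expansins, proton pumps, cell type markers) were chosen with earlier results of these data known. All 10 genes are named. Of the other expansins and of the pumps, up to 4 called genes are named by size of change, for day 13 against day 8 and for norflurazon at day 10. For each gene called in the F test, the 2 most correlated named probe sets are given.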

Additional observations from a re-analysis of the deposited data

How the results depend on the processing

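Of 3180 recomputed changes of single genes, 3101 kept their side of the threshold and their direction, 44 lost a call and 35 gained one, and none with a call reversed. The numbers of the 10 genes called that moved by more than 1.5 times were as follows. From day 8 to 9, 1 in place of 0 was called after quantile normalization again, with the dim filter and with array weights. From day 9 to 10, 1 in place of 0 was called after quantile normalization again, with array weights and with the compared arrays alone. That last setting gave 1 in place of 2 for days 11 to 12, 0 in place of 2 for days 12 to 13 and 1 in place of 2 for day 10 against 9 with norflurazon. For days 12 to 13 quantile normalization again gave 4. For norflurazon at day 9 the dim filter gave 1 in place of 0, and at day 10 the dim filter, array weights and the compared arrays alone each gave 2 in place of 1. With 1 array left out, the numbers called were 0 to 1 for days 8 to 9, 0 to 1 for days 9 to 10, 0 to 2 for days 11 to 12, 1 to 4 for days 12 to 13, 2 to 5 for days 8 to 10, 5 to 6 for days 11 to 13, 2 to 4 for the late minus early change, 8 to 9 for the F test, 0 to 1 and 0 to 2 for norflurazon at days 9 and 10, 3 to 6 for MS day 10 against 9 and 1 to 2 for that step with norflurazon. With the replicate block, 5 of the 10 genes were called higher from day 9 to 10 on MS in place of 4 (EXPA10, adjusted p = 0.0459), 8 of 10 between days 8 and 13, and no other call of the 10 changed. Over all probe sets, the calls for days 8 to 9 numbered 386, and 948 with array weights, 613 with the dim filter and 16 with the compared arrays alone. For days 9 to 10 they were 2232 and 704 alone, for days 10 to 11 0, 3 with the dim filter, 4 with array weights and 6 without day 11 replicate 2, for days 11 to 12 210, 3 alone, 336 after quantile normalization again and 347 with the dim filter, and for days 12 to 13 465, 2 alone and 751 with the dim filter. For norflurazon they were 2248 and 1202 alone at day 9, 233, 594 with array weights, 431 with the dim filter at day 10, and 589 and 890 with the dim filter for the interaction. Quantile normalization again changed the split of higher and lower calls from 139 and 247 to 299 and 261 for days 8 to 9, from 718 and 1514 to 1106 and 952 for days 9 to 10, from 748 and 746 to 749 and 1133 for the late minus early change, and from 381 and 208 to 358 and 335 for the interaction. With 1 array left out, the lowest counts were 115 for days 8 to 9 (without day 9 replicate 2), 749 for days 9 to 10 (day 9 replicate 3), 10 for days 11 to 12 (day 11 replicate 2), 122 for days 12 to 13 (day 12 replicate 2), 2434 in place of 3750 for days 11 to 13 (day 13 replicate 2), 1416 and 16 for norflurazon at days 9 and 10 (norflurazon day 9 replicate 2 and MS day 10 replicate 2), 359 for the interaction (MS day 10 replicate 2) and 259 in place of 594 for the step with norflurazon (norflurazon day 10 replicate 2). The highest included 805 for days 8 to 9 (day 8 replicate 1), 770 for days 12 to 13 (day 12 replicate 3) and 487 for norflurazon at day 10 (MS day 9 replicate 3), so the shares of all probe sets called are themselves uncertain. The cause of these shifts was not tested.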
